A study of Mus musculus with 24 samples.

Results

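Adding repeated ethanol binges to 8 weeks of ethanol feeding was compared with the same feeding and no binge, over 9 of the 24 arrays of the series. The 4 multiple-binge samples and the 5 no-binge samples were chosen by their titles alone. All were livers of male C57BL/6N mice on an ethanol diet for 8 weeks, and the multiple-binge group also received ethanol at 5 g/kg, 2 times per week. A group of 5 with the same feeding and 1 binge of 5 g/kg and a group of 4 pair fed for 8 weeks are given beside them. The other arrays of the series were 3 pair fed for 10 days and 3 fed ethanol for 10 days with 1 binge of 5 g/kg. The labels give neither the animals' ages, nor the time from the last binge to collection, nor the number of binges in all. They do not tie the replicates to separate animals either, so the spread behind each p-value may be technical in part. Liver RNA was labelled with Cy5, a reference RNA with Cy3, and each pair was hybridised to 1 array. The reference is labelled both as RNA of assorted mouse tissues and as liver, so its makeup is uncertain and a ratio of 0 is not a liver baseline. The value given throughout is the log2 ratio of Cy5 over Cy3, and a difference is the multiple-binge mean minus the no-binge mean. With 4 and 5 arrays a group, the precision is limited by their number.

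All 4 multiple-binge arrays were read in a scan of their own, on another scanner and with a newer grid file than the other 8-week arrays, and no slide held both groups. Scan and group therefore cannot be told apart. Median Cy3 intensity was 317 to 505 on the multiple-binge arrays and 169 to 239.5 on the no-binge arrays, although the reference is labelled as the same RNA. Each gene was therefore tested with limma in the ratio, in Cy5 alone and in Cy3 alone, with Benjamini-Hochberg adjustment over 17234 genes and a threshold of 0.05. "Rose" and "fell" are used below for the stricter call, a gene that passed in the ratio and in Cy5 in the same direction and did not pass in Cy3. Of the 12 hepatocyte markers 9 were tested, and all 9 were above background on all 9 arrays in Cy5, as were 14254 of all 17234 genes tested, 11 of 11 cholangiocyte and 13 of 14 endothelial markers. Hepatocyte markers were thus present, which by itself does not single out liver.

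The 4 multiple-binge samples did not vary independently of their numbers. Replicates 1 and 2 shared one slide and replicates 3 and 4 the other, yet across 15712 genes, which are not independent replicates, the ratio correlated best between replicates 1 and 3 (r = 0.66) and between 2 and 4 (r = 0.79). The remaining pairs gave 0.44 to 0.58. The difference between replicates 1 and 2 correlated with that between replicates 3 and 4 (r = 0.62), as the plot of differences within slides shows. In the scanner's own log ratio, over 19562 probes with a single spot, that correlation was 0.41. There the SD of one slide difference less the other was 0.467, against 0.459 from the spread of repeated spots alone. The difference between replicates 2 and 4 themselves had an SD of 0.255, above the 0.209 that spots gave, and that between 1 and 3 one of 0.487 against 0.409. By robust SDs, from the median absolute deviation, these were 0.206 against 0.125 and 0.328 against 0.224, and the difference of slide differences was 0.334 against 0.256. By either kind of SD, both like pairs differed by more than repeated spots gave, as did every other pair within either group. Replicates 2 and 4 differed least of all these pairs. Replicates 1 and 3 differed by more than replicates 1 and 2, which gave an SD of 0.395 and a robust SD of 0.314. For replicates 3 and 4 these were 0.461 and 0.337. Whether like replicates share an RNA was not tested. The labels number 4 replicates and do not say that any share an RNA, so n = 4 was kept. Results are given too with replicates 1 and 3 averaged and 2 and 4 averaged, which leaves 2 values for the group, wherever that ends a call.

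**Figure D1:**
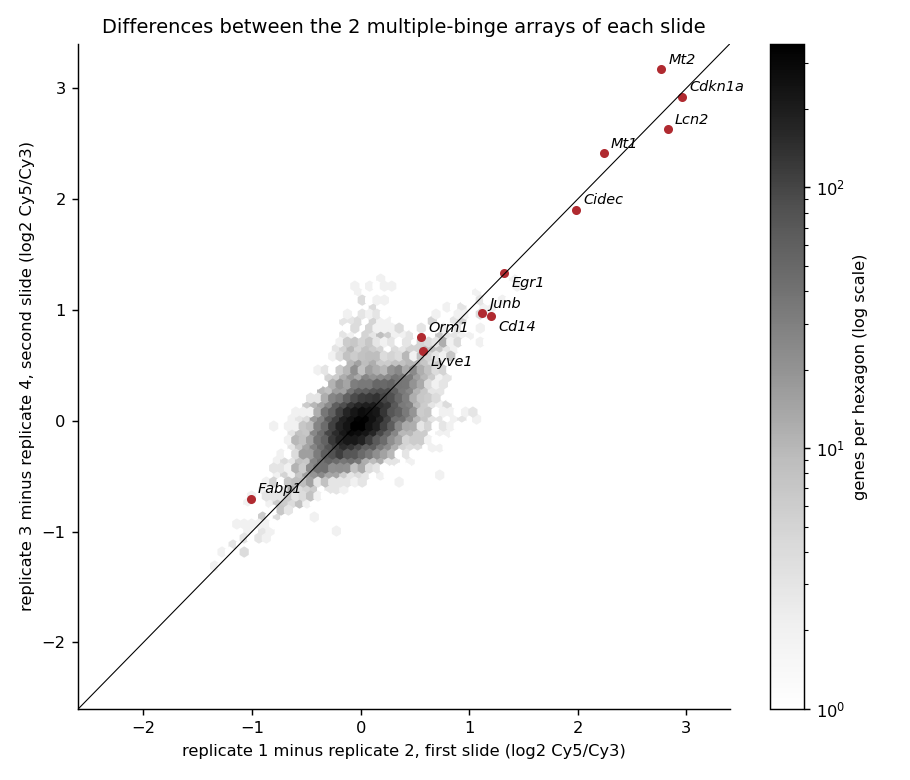
Each hexagon counts genes, with replicate 1 minus replicate 2 (first slide) on the x axis and replicate 3 minus replicate 4 (second slide) on the y axis, both in log2 Cy5/Cy3. Cidec, Mt1, Mt2, Cdkn1a, Lcn2, Egr1, Junb, Cd14, Lyve1 and Orm1 lie to the upper right, near the line of equal differences (r = 0.62 over 15712 genes), while Fabp1 lies to the lower left.

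The liver clears most ingested ethanol, through alcohol dehydrogenases and the microsomal enzyme CYP2E1, and the products disturb its redox balance and its handling of fat. Chronic feeding combined with a binge is used as a mouse model of alcoholic steatohepatitis, in which fat storage, oxidative stress, acute-phase proteins and neutrophil entry have been studied. Cidec, named in the series' title, encodes a lipid droplet protein that drives the growth of large droplets.

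By the stricter call 1404 genes differed (8.15% of those tested). Of them 321 rose (1.86%) and 1083 fell (6.28%). A change of at least 2-fold was seen for 20 of the rises and 147 of the falls. In the ratio alone 4400 genes passed (25.5%), 1693 of them higher (9.82%) and 2707 lower (15.7%). That split depended on the scaling. The scanner's log ratio gave 2351 higher and 2007 lower, and the deposited log2 values gave 2484 and 2108. With the like replicates averaged 140 genes rose (0.819% of 17099) and 617 fell (3.61%). Without multiple-binge replicate 3, 225 rose and 715 fell.

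Both channels differed between the groups in like directions over genes, as the plot of the channels shows. In Cy5 alone 8456 genes passed (49.1%), with 4114 higher (23.9%) and 4342 lower (25.2%). In Cy3 alone, where the RNA is labelled as the same, 8124 passed (47.1%), with 4329 higher (25.1%) and 3795 lower (22.0%). Over genes the Cy5 and Cy3 differences correlated at r = 0.88, with SDs of 0.714 and 0.659, while the SD of the ratio difference was 0.344. Of the 4400 genes that passed in the ratio, 365 passed in Cy5 in the opposite direction and 1898 did not pass in Cy5.

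**Figure D2:**
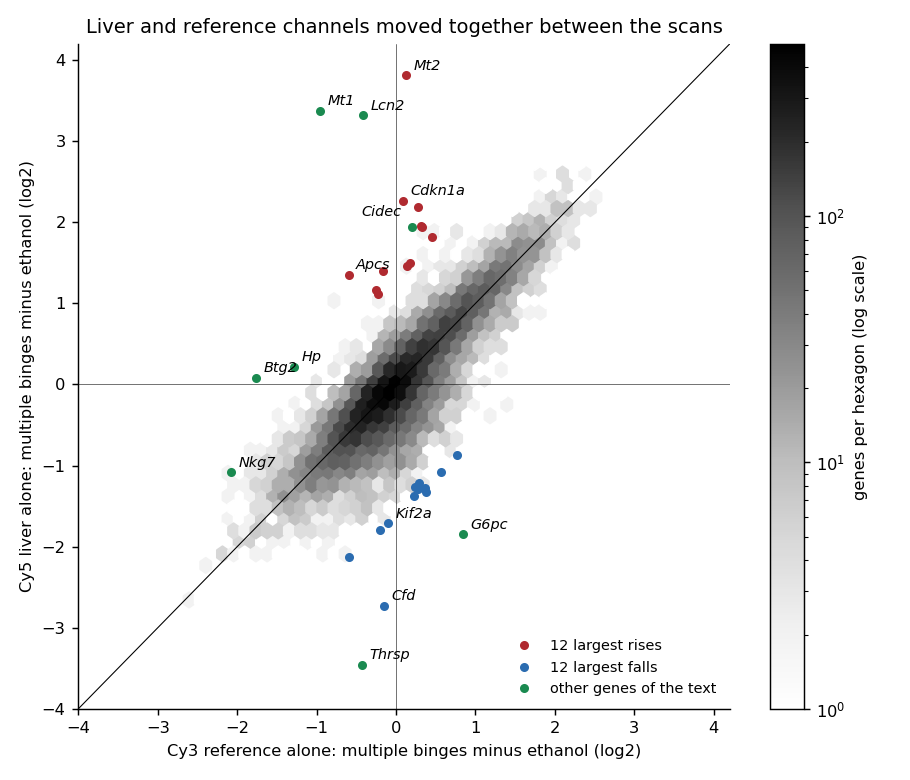
Each hexagon counts genes by their difference between the multiple-binge and the no-binge group in the Cy3 reference alone (x axis) and in the Cy5 liver channel alone (y axis), both in log2, with the line of equal change. The cloud follows the line (r = 0.88), Mt2 and Cdkn1a lie far above it at a Cy3 difference near 0, Cfd far below, and Btg2, Hp and Nkg7 lie to the left, with Cy3 lower by over 1.

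Cidec read -0.93, -3.14, -1.92, -1.99 and -1.73 on the 5 no-binge arrays and 0.74, -1.24, 0.81 and -1.10 on the 4 multiple-binge arrays. Replicates 1 and 3 were the high pair, and replicates 2 and 4 lay below no-binge replicate 1, so the groups overlapped. The difference was 1.74 ± 0.63 (SE) in the ratio (limma, adjusted p = 0.045), 1.95 in Cy5 (adjusted p = 0.0164) and 0.20 in Cy3 (adjusted p = 0.632). The call was lost with like replicates averaged (adjusted p = 0.147), and without any one of no-binge replicates 2, 3, 4 and 5 or multiple-binge replicates 1 and 3 (1.41 to 1.80 over these, adjusted p 0.0565 to 0.15). The single-binge arrays read 0.22 to 2.07, and the 2 binge groups differed by -1.45 (adjusted p = 0.0863).

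Among 19 lipid droplet genes tested 4 were higher and 2 lower in the ratio, and by the stricter call 2 rose and 1 fell. Over all genes 9.82% were higher and 15.7% lower in the ratio, and 1.86% rose and 6.28% fell. Every list count below is to be read beside these shares, and a count near them is not a result about the list. Their median difference was 0.05 against -0.01 over all genes. Abhd5, the co-activator of the triglyceride lipase ATGL, rose by 0.51 (adjusted p = 0.00121), but was 0.28 higher with median centring (adjusted p = 0.0814). Lipe, hormone-sensitive lipase, fell by 0.39 (adjusted p = 0.0403), and its call was lost with like replicates averaged (adjusted p = 0.113) or without any one of no-binge replicates 1, 3 and 4 and multiple-binge replicates 3 and 4 (adjusted p 0.0767 to 0.128). Plin4, a droplet coat protein, passed in the ratio only, at 1.11 (adjusted p = 0.00432), and in Cy3 it was 0.41 lower.

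The largest of the named rises was in the metallothioneins, small cysteine-rich proteins that bind zinc and other metals. The promoters of Mt1 and Mt2 are printed because these genes moved together, as 300 bases that end shortly after the start of the gene in RefSeq's GRCm38.p6, both on the plus strand and near each other, at chr8:94178839-94179138 (Mt1) and chr8:94172368-94172667 (Mt2). Capitals mark matches, on either strand, to TGCACNC or TGCGCNC, the core letters of the metal response element bound by MTF1.
Mt1: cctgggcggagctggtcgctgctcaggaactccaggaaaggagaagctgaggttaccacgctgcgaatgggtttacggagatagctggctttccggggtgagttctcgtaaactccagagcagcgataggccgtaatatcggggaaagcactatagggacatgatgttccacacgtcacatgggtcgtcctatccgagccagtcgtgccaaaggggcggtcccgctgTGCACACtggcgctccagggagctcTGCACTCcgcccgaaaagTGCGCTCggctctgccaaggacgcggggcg
Mt2: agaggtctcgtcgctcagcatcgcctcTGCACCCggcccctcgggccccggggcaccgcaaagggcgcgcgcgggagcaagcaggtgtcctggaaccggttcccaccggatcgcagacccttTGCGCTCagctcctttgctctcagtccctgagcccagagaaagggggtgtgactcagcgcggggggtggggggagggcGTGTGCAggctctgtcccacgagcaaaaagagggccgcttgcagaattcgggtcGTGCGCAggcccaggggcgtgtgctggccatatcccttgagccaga
The Mt1 promoter holds 3 matches and the Mt2 promoter 4. At least 1 match was found in 25.7% of 32851 mouse promoters of that length, and at least 2 in 7.11%. A match describes letters and not a site in use.

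Mt2 read -3.17, -3.64, -4.60, -3.83 and -3.98 without a binge and 1.27, -1.50, 1.39 and -1.78 after multiple binges. Mt1 read -3.59, -4.22, -4.77, -3.63 and -4.63 without a binge and 1.33, -0.91, 1.33 and -1.08 after them. For both genes every multiple-binge array lay above every no-binge array, with replicates 1 and 3 at least 2.24 above replicates 2 and 4. Such a lack of overlap was common, seen in the ratio for 4442 genes with 17234 tested. For the largest rises, Mt2 among them, and the largest falls it was also part of how the genes were chosen. Each lack of overlap given below is to be read beside this count. Mt2 rose by 3.69 ± 0.51, or 12.9-fold (adjusted p = 5.22e-05), with 3.82 in Cy5 and 0.13 in Cy3. Mt1 was higher by 4.34 ± 0.49 (adjusted p = 1.25e-05), but only in the ratio and Cy5, since its Cy3 was 0.96 lower (adjusted p = 0.00607). In Cy3 the Mt1 reference signal was 15.94 and 16.06 on replicates 1 and 3 and 17.18 and 17.06 on replicates 2 and 4, so it was lower where the liver signal was higher. The same order was seen for Mt2, at 15.63 and 15.47 against 16.71 and 16.58. What part of the ratio this carries was not tested.

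Mt3, which is best known from brain, rose by 0.46 (adjusted p = 0.00178), and its 4 arrays read between -0.04 and 0.16 with no split into pairs. With median centring Mt3 was 0.23 higher (adjusted p = 0.132). Of the 12 tested genes of the metallothionein and zinc list 5 were higher and 1 lower in the ratio, and by the stricter call 2 rose and none fell. The lower one was the zinc exporter Slc30a1, at -0.52 (adjusted p = 0.00495), which did not pass in Cy5. The list's median difference was 0.23.

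Genes of cell cycle arrest were also among the largest rises. Cdkn1a, which encodes the cyclin-dependent kinase inhibitor p21, read -2.62, -3.39, -3.51, -3.50 and -3.07 without a binge and 0.37, -2.59, 0.50 and -2.42 after multiple binges. The mean difference was carried by replicates 1 and 3, and replicates 2 and 4 stood 0.025 and 0.20 above the highest no-binge array. Cdkn1a rose by 2.18 ± 0.54 (adjusted p = 0.00525) with a Cy3 difference of 0.09. With scaling between arrays the adjusted p was 0.0531. Btg3, an antiproliferative gene, rose by 1.64 ± 0.38 (adjusted p = 0.00351), at -1.25, 0.62 and -0.90 on replicates 2 to 4. Without replicate 3 the Btg3 difference was 1.07 (adjusted p = 0.0426).

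The p53 targets Phlda3, an inhibitor of AKT, and Bax, a pro-apoptotic BCL2 family member, rose by 0.63 (adjusted p = 0.00616) and 0.38 (adjusted p = 0.000999). Bax read 0.22, 0.15, 0.36 and 0.25 on the multiple-binge arrays, all above the no-binge arrays, and Phlda3 read 0.37, 0.14, 0.49 and 0.18. The 4 multiple-binge arrays spanned 0.21 for Bax and 0.35 for Phlda3, against 3.10 for Cdkn1a. With median centring Bax was 0.16 higher (adjusted p = 0.372), and the call of Bax was lost. Of 20 arrest and p53 genes tested 9 were higher and 1 lower in the ratio, 3 rose and none fell, and the median difference was 0.40. Cdkn1b (p27) passed in the ratio only, at 0.52. Btg2, an antiproliferative early response gene, was 1.84 higher in the ratio, but its Cy5 difference was 0.08 (adjusted p = 0.882) and its Cy3 was 1.76 lower (adjusted p = 4.86e-09), so no difference passed in the liver channel.

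Of 22 immediate early genes, which cells transcribe within minutes of a stimulus, 6 were higher and none lower in the ratio, and 2 rose. Junb, an AP-1 subunit, rose by 0.96 (adjusted p = 0.0302) and Ier2 by 0.64 (adjusted p = 0.0414), and both calls were lost with like replicates averaged (adjusted p = 0.112 and 0.144). The Junb call also ended without any one of no-binge replicates 1 and 3 and multiple-binge replicates 1 and 3 (adjusted p 0.0589 to 0.112). That of Ier2 ended without any one of 7 arrays, no-binge replicates 1 to 4 and multiple-binge replicates 1, 3 and 4 (adjusted p 0.0557 to 0.134). Egr1, a zinc finger transcription factor, read -2.57, -2.67, -2.35, -1.93 and -2.09 without a binge and 0.35, -0.98, 0.37 and -0.96 after multiple binges. Its groups did not overlap and the difference was 2.01 ± 0.41 (adjusted p = 0.00126). It was left out of the stricter call because Cy3 was 1.20 higher (adjusted p = 1.32e-08), which lowers the ratio, and in Cy5 it was 3.21 higher (adjusted p = 1.01e-06). Ier5 behaved likewise, with 0.81 in the ratio, 1.40 in Cy5 and 0.60 in Cy3.

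**Figure D3:**
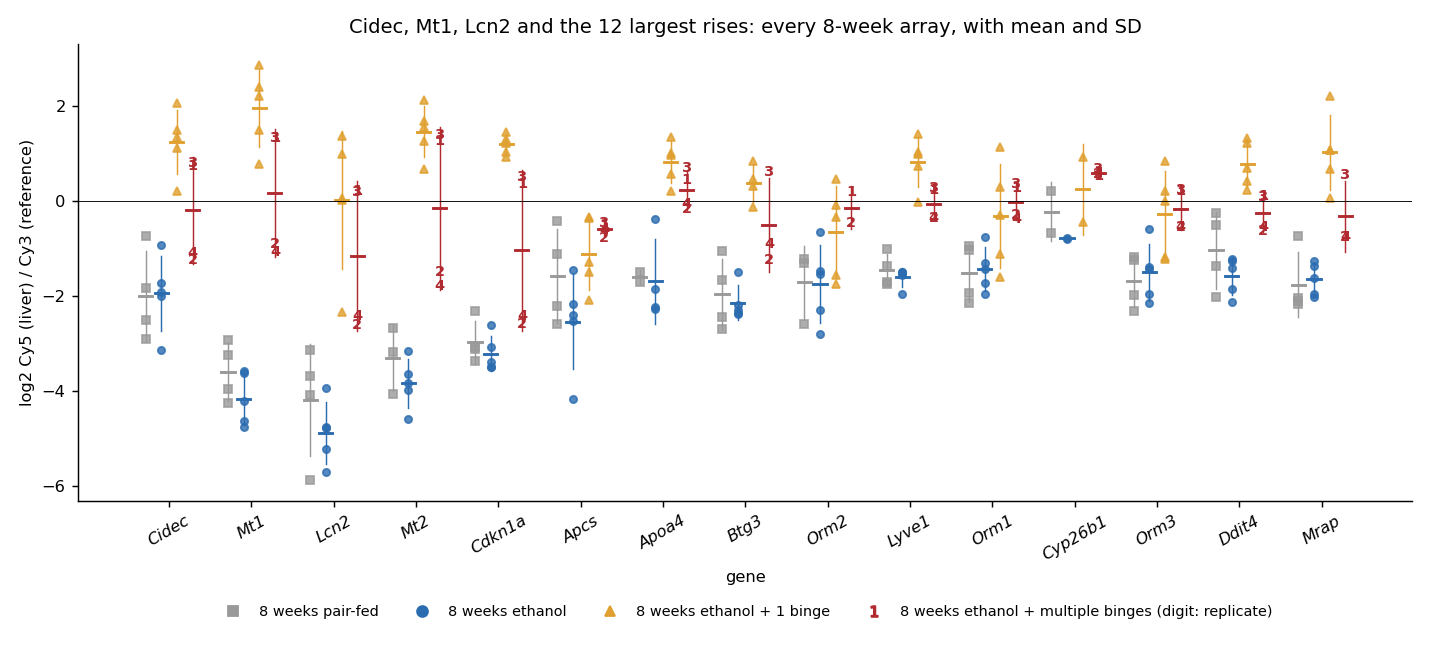
The log2 Cy5/Cy3 ratio (y axis) of Cidec, Mt1, Lcn2 and the 12 largest rises (x axis) on every 8-week array, with bars for the group mean and SD and digits for the replicate number of the multiple-binge arrays. Digits 1 and 3 stand above 2 and 4 for Cidec, Mt1, Mt2, Cdkn1a and Lcn2, while for Apcs and Cyp26b1 the 4 digits lie together.

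Hepatocytes secrete acute-phase proteins when cytokines such as interleukin-6 reach them. Of 22 acute-phase genes tested 9 were higher and none lower in the ratio, and 4 rose by the stricter call. Their median difference was 1.18 in the ratio, 0.73 in Cy5 and -0.27 in Cy3, against -0.01, -0.08 and -0.02 over all genes. Apcs, serum amyloid P, read -1.45, -2.40, -2.16, -2.53 and -4.16 without a binge and -0.50, -0.79, -0.47 and -0.61 after multiple binges. All 4 multiple-binge arrays were above all no-binge arrays and lay within 0.32 of each other. Apcs rose by 1.95 ± 0.43, or 3.87-fold (adjusted p = 0.00223).

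The orosomucoids Orm1, Orm2 and Orm3, plasma proteins that bind drugs and lipids, rose together. The promoters of Orm2 and Orm3 are given for that reason, from RefSeq's GRCm38.p6 and on the plus strand, at chr4:63362199-63362498 (Orm2) and chr4:63355908-63356207 (Orm3). Capitals mark matches, on either strand, to TTGCNNAA, letters that C/EBP factors bind.
Orm2: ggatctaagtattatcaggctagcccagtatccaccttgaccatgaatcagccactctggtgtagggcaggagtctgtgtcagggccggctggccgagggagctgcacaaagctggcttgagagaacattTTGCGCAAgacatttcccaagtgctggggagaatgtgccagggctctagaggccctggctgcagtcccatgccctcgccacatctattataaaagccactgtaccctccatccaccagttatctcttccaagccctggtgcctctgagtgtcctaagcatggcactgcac
Orm3: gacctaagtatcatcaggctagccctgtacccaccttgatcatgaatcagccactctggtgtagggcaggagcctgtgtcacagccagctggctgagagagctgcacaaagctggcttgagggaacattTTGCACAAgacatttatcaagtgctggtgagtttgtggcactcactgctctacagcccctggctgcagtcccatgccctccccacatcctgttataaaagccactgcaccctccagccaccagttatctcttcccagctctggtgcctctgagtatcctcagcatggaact
Each holds 1 match, as did 10.8% of all promoters of that length. Orm1 read -1.31, -0.75, -1.73, -1.42 and -1.96 without a binge and 0.27, -0.29, 0.37 and -0.39 after multiple binges, with no overlap. It rose by 1.43 ± 0.41 (adjusted p = 0.013), Orm3 by 1.35 ± 0.39 (adjusted p = 0.0134) and Orm2, measured on 2 multiple-binge arrays, by 1.62 ± 0.56 (adjusted p = 0.0402). All 3 calls were lost with like replicates averaged, with adjusted p from 0.0622 to 0.0759, and with scaling between arrays. The Orm2 call also ended without no-binge replicate 1, 3 or 5 (adjusted p 0.0547 to 0.0794). These paralogs are close in sequence, so their probes may read each other's transcripts and they are not 3 independent measurements.

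Lcn2, lipocalin 2, which binds bacterial siderophores and is made by hepatocytes and neutrophils, had the largest difference of the list. It read -4.79, -3.93, -5.23, -4.77 and -5.71 without a binge and 0.22, -2.61, 0.20 and -2.43 after multiple binges. The lowest multiple-binge array was still 1.33 above the highest no-binge array. The difference was 3.73 ± 0.77 (adjusted p = 0.00133), with 3.32 in Cy5 and, outside the stricter call, -0.41 in Cy3 (adjusted p = 0.0178). Haptoglobin, Hp, which binds free haemoglobin, was 1.51 higher in the ratio (adjusted p = 0.00445). Its Cy5 difference was 0.22 (adjusted p = 0.432) and its Cy3 difference was -1.29 (adjusted p = 9.4e-06), so it passed in Cy3 and not in Cy5. What part of the ratio the liver RNA carries was not tested.

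Among 23 inflammation genes 8 were higher and 1 lower in the ratio, with 1 rise, that of Nfkbiz, an atypical IkB protein, by 0.46 (adjusted p = 0.0173, and 0.0796 with like replicates averaged). Its call also ended without no-binge replicate 3 or multiple-binge replicate 2 or 4 (adjusted p 0.0553 to 0.0736). Cd14, the lipopolysaccharide co-receptor, read 0.47, -0.73, 0.52 and -0.43 after multiple binges and -2.44 to -1.46 without. Its groups did not overlap, and the difference of 2.07 (adjusted p = 0.000123) combined 1.27 in Cy5 and -0.81 in Cy3. Of 23 chemokine and adhesion genes 4 were higher and none lower in the ratio. Ccl6, a macrophage chemokine, rose by 1.25 ± 0.24 (adjusted p = 0.000675), at 0.58, -0.32, 0.52 and -0.18 against -1.56 to -0.66, with no overlap. Cxcl10, an interferon-induced chemokine, was 0.46 higher in the ratio (adjusted p = 0.0111, and 0.0595 without multiple-binge replicate 4), and its Cy3 difference was 1.53.

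Of 14 endothelial marker genes 2 rose and none fell, with a median difference of 0.05. In whole liver a change in the number of cells of a type and a change in RNA per cell cannot be told apart. Lyve1, the hyaluronan receptor of lymphatic and liver sinusoidal endothelium, read -1.52, -1.49, -1.56, -1.50 and -1.96 without a binge and 0.22, -0.35, 0.28 and -0.35 after multiple binges. It rose by 1.56 ± 0.23, or 2.94-fold (adjusted p = 9.53e-05), with a Cy3 difference of -0.16. Cdh5, vascular endothelial cadherin, rose by 0.51 (adjusted p = 0.00282), but was 0.30 higher with median centring (adjusted p = 0.0993). Cyp26b1, which breaks down retinoic acid, rose by 1.37 ± 0.30 (adjusted p = 0.00585), at 0.52, 0.58, 0.67 and 0.59, with 2 no-binge arrays measured, at -0.78 and -0.79. With scaling between arrays the adjusted p of Cyp26b1 was 0.0953.

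The remaining large rises were Apoa4, Ddit4 and Mrap. Ddit4 (REDD1), an inhibitor of mTORC1, read 0.11, -0.63, 0.09 and -0.54 against -2.13 to -1.21 and rose by 1.33 ± 0.29 (adjusted p = 0.0021). Mrap, an accessory protein of melanocortin receptors, rose by 1.32 ± 0.39 (adjusted p = 0.0162), but not without replicate 3 (0.89, adjusted p = 0.139). Fkbp5, a co-chaperone induced by glucocorticoids, rose by 1.07 ± 0.19 (adjusted p = 0.000357) and Sgk1, a kinase induced by them, by 0.72 (adjusted p = 0.00934). With like replicates averaged Sgk1 passed in the ratio only (adjusted p = 0.0404), and with median centring its call was lost (adjusted p = 0.171). They were the 2 rises among 16 fasting and glucocorticoid genes, of which 2 were higher and 3 lower in the ratio, at a median of 0.01.

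Lower in the same list was G6pc, the catalytic subunit of glucose-6-phosphatase, the last step of glucose release. It read 0.33, 0.59, 0.79 and 0.04 on 4 no-binge arrays and -2.72, -1.76, -2.79 and -1.75 after multiple binges. The groups were far apart, with replicates 1 and 3 the lowest. The difference was -2.69 ± 0.43 (adjusted p = 0.000208), made of -1.85 in Cy5 and 0.84 in Cy3 (adjusted p = 2.89e-05), so it is outside the stricter call.

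Fatty acid synthesis genes showed no rise, and 4 of 12 tested were lower in the ratio, with a median difference of -0.53 in the ratio, -0.90 in Cy5 and -0.46 in Cy3. None met the stricter call, and Cy3 passed for 10 of the 12. Thrsp (Spot 14), a lipogenic regulator, read 0.95, 0.58, 0.45 and 0.20 without a binge and -2.79, -2.15 and -2.50 on 3 multiple-binge arrays. Its difference of -3.02 ± 0.35 (adjusted p = 3.53e-05) was -3.45 in Cy5 and -0.43 in Cy3, the last also past the threshold (adjusted p = 0.00197). Mlxipl (ChREBP), a glucose-sensing regulator of lipogenesis, was 0.76 lower in the ratio (adjusted p = 0.0115), but 0.04 higher in Cy5. For Fasn, fatty acid synthase, the difference was -1.02 ± 0.41 (adjusted p = 0.0706).

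Of 11 fatty acid uptake genes 3 were higher and 3 lower in the ratio, and 2 fell by the stricter call. Over all genes 9.82% were higher and 15.7% lower in the ratio, and 6.28% fell. Fabp1, the liver fatty acid binding protein, read 0.69, 1.45, 1.04 and 1.25 on 4 no-binge arrays and -0.30, 0.71, -0.75 and -0.05 after multiple binges. Replicate 2 lay just inside the no-binge range. Fabp1 fell by 1.21 ± 0.27 (adjusted p = 0.00284) and Slc27a5, a bile acid and fatty acid CoA ligase, by 0.53 (adjusted p = 0.00934, and 0.102 with median centring). Of 17 fatty acid oxidation genes 1 was higher and 1 lower in the ratio. The lower one, Acaa2, the last thiolase of mitochondrial beta oxidation, fell by 0.29 (adjusted p = 0.0268, and 0.112 with like replicates averaged), but not without no-binge replicate 4 or multiple-binge replicate 1 or 3 (adjusted p 0.0597 to 0.0944). Fgf21, a hormone released by the liver in fasting and after ethanol, was 0.81 higher in the ratio (adjusted p = 0.0376) and 2.26 higher in Cy5, but Cy3 was also 1.44 higher. Without no-binge replicate 2 or 5 or multiple-binge replicate 1 or 3 its ratio did not pass (adjusted p 0.0748 to 0.174).

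Of 12 lipoprotein genes 3 were higher and 1 lower in the ratio, and 2 rose. Apoa4, an apolipoprotein of intestine and fatty liver, rose by 1.92 ± 0.51, or 3.78-fold (adjusted p = 0.00964). It read 0.44, -0.16, 0.70 and -0.06 against -0.37, -1.86, -2.24 and -2.29, with no overlap, and its call was lost with like replicates averaged (adjusted p = 0.0592). Apoc3, an inhibitor of lipoprotein lipase, rose by 0.62 (adjusted p = 0.000856), at 0.89, 0.53, 1.05 and 0.51. Apoe, the ligand of remnant receptors, was 0.38 lower in the ratio only (adjusted p = 0.0109). Among 24 cholesterol genes 1 was lower and none higher in the ratio, and this was Stard4, a sterol carrier, which fell by 0.79 (adjusted p = 0.00812).

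Of 17 glutathione transferase genes 3 were higher and none lower in the ratio. Gstm1 read 1.42, 1.21, 1.54 and 0.76 after multiple binges against -1.65 to 0.23, a difference of 1.78 (adjusted p = 0.00143), with a Cy3 difference of -0.73. Gstm3 read 1.32, 0.03, 1.51 and 0.21, a difference of 1.86 (adjusted p = 0.0124), with 0.50 in Cy3. These paralogs are alike in sequence, so the split between them is uncertain. Mgst1, the microsomal enzyme, rose by 0.33 (adjusted p = 0.0319), a call lost with like replicates averaged (adjusted p = 0.111) and without no-binge replicate 3 or 4 or multiple-binge replicate 1 or 2 (adjusted p 0.0634 to 0.122). Of 18 antioxidant genes 2 were higher and none lower in the ratio. Srxn1, sulfiredoxin, rose by 0.99 ± 0.17 (adjusted p = 0.000843) on 2 multiple-binge and 3 no-binge arrays, and with scaling between arrays its adjusted p was 0.271. Gpx3, plasma glutathione peroxidase, was 0.58 higher in the ratio only (adjusted p = 0.0403), and not without no-binge replicate 1, 3 or 5 or multiple-binge replicate 1 or 3 (adjusted p 0.0582 to 0.164).

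Among 13 genes of alcohol and aldehyde metabolism, most of them dehydrogenases, 2 rose, Aldh3b1 by 0.43 (adjusted p = 0.00212) and Adh7 by 0.51 (adjusted p = 0.0207, and 0.101 with like replicates averaged), and 3 were lower in the ratio only. The Adh7 call also ended without multiple-binge replicate 1 or 3 (adjusted p 0.0539 and 0.0674). Of 15 bile acid genes 2 were higher and 3 lower in the ratio. Cyp8b1, which sets the share of cholic acid, was 1.33 lower (adjusted p = 0.00674) and the basolateral exporter Abcc4 0.80 higher (adjusted p = 0.0062), with Cy3 differences of 0.58 and 1.23 that keep both out of the stricter call. Of 15 endoplasmic reticulum stress genes 3 were higher in the ratio, and the list's medians were 0.30 in the ratio, 1.20 in Cy5 and 0.99 in Cy3. The highest was Sdf2l1, at 1.37 (adjusted p = 0.0208), which did not pass without multiple-binge replicate 2 or 4 (adjusted p 0.0542 and 0.0684). Heat shock genes were mixed, 4 higher and 3 lower of 15, and Hspb1, a small heat shock protein, rose by 0.87 (adjusted p = 0.018, and 0.0959 with like replicates averaged).

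Of 17 iron genes 4 were higher and 3 lower in the ratio, 1 rose and 2 fell. Over all genes the shares were 9.82% and 15.7% in the ratio, and 1.86% and 6.28% by the stricter call. Ftl1, the ferritin light chain that stores iron, read 1.11, 1.04, 1.00 and 0.67 against -0.04 to 0.45 and rose by 0.78 (adjusted p = 0.00253). Bmp6, the ligand that induces hepcidin, fell by 0.60 (adjusted p = 0.0132, and 0.074 with like replicates averaged). Heph, an iron oxidase, fell by 0.52 (adjusted p = 0.00994). Hamp2, a hepcidin paralog, read 0.84, 1.67, 0.82, 0.44 and 0.22 without a binge and -0.81, -1.75, -0.94 and -1.63 after multiple binges. It was 2.08 lower in the ratio (adjusted p = 0.00045), 1.47 lower in Cy5 and 0.61 higher in Cy3 (adjusted p = 0.00787). Of the genes given above as past the threshold in the ratio only, Fgf21, Apoe, Gpx3, Gstm3, Sdf2l1 and Cxcl10 did not pass with like replicates averaged, with adjusted p from 0.0566 to 0.125.

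Further calls in the ratio ended under other settings. With median centring these were Acaa2, Adh7, Apoe, Asgr1, Cxcl10, Fgf21, Gpx3, Hspb1, Ier2, Junb, Mgst1 and Nfkbiz (adjusted p 0.0595 to 0.455). With scaling between arrays they were Apoe, Fgf21, Gpx3, Gstm3, Ier2, Junb, Kif2a, Lipe, Nhlh1, Plin4 and Sdf2l1 (adjusted p 0.056 to 0.825). With the scanner's log ratio or the deposited values they were Cdc20, Cxcl10, Lipe and Mgst1 (adjusted p 0.101 to 0.668), with the scanner's log ratio alone Slc27a5 (adjusted p = 0.0656), and with the deposited values alone Srxn1 (adjusted p = 0.113). With the mean over probes they were Bmp6, Cdkn1b, Fgf21, Ier2, Junb, Mgst1 and Slc30a1 (adjusted p 0.074 to 0.738). With a replicate or slide block, array weights, marked spots kept or fewer groups in the fit, the calls of Cdc20, Fgf21, Gpx3, Ier2, Lipe and Orm2 ended in at least 1 of these (adjusted p 0.0502 to 0.0834).

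**Figure D4:**
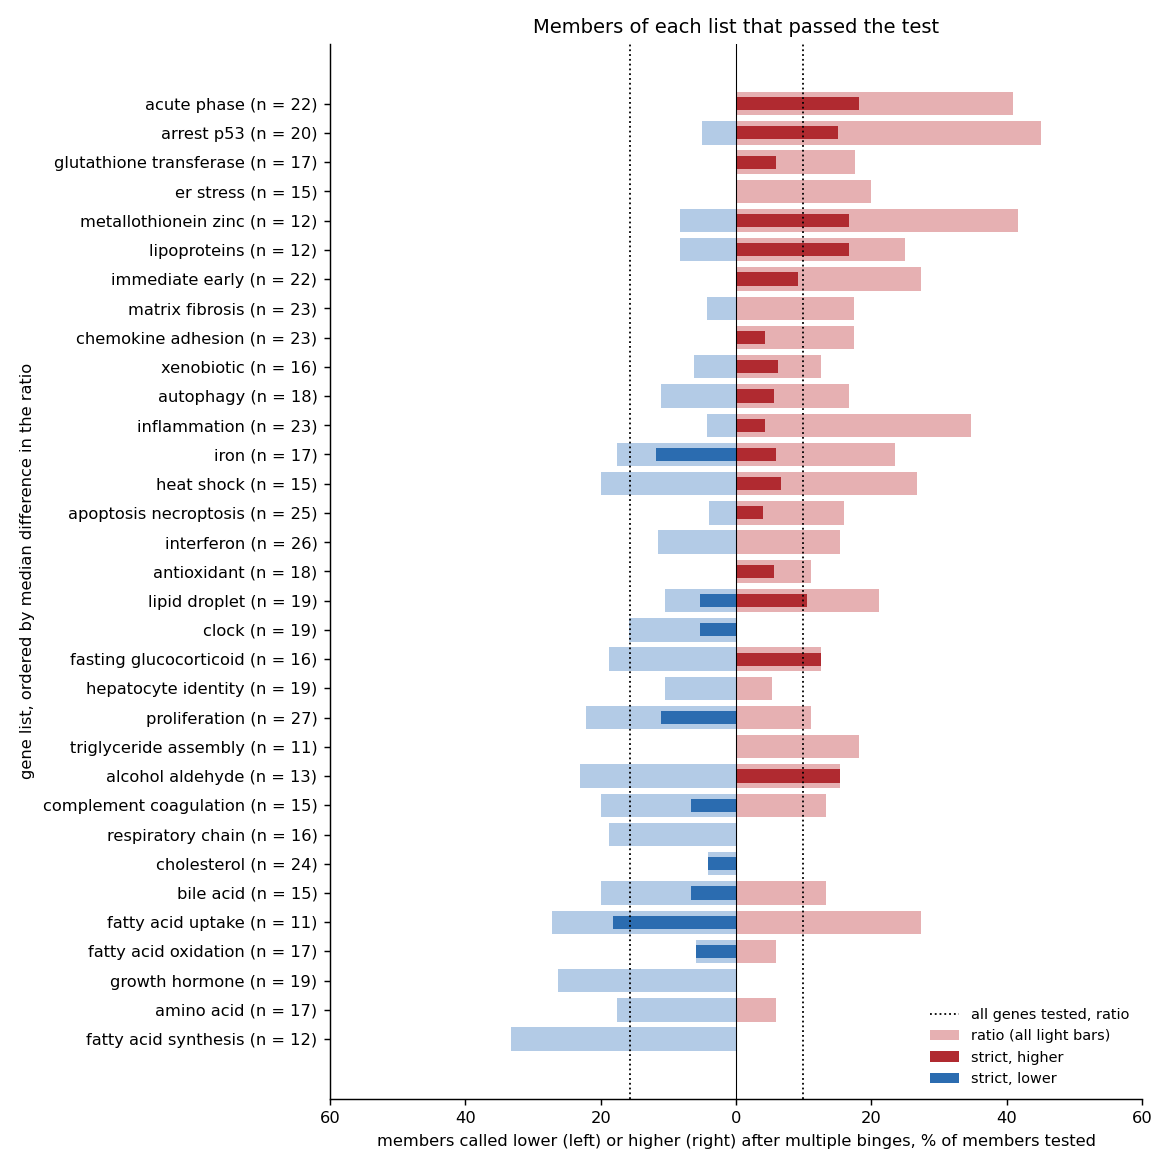
Horizontal bars give, for each gene list with its number of members tested, the percentage that passed as lower (left) or higher (right), in the ratio (light) and by the stricter call (dark), with dotted lines for all genes tested (15.7% lower and 9.82% higher in the ratio). Far to the right reach arrest and p53 (9 of 20 higher in the ratio), metallothionein and zinc (5 of 12), acute-phase (9 of 22) and inflammation genes (8 of 23). Fatty acid synthesis, with 4 of 12 lower in the ratio and none by the stricter call, reaches to the left.

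The 12 largest falls were Cfd, Zdhhc3, Clca2, Kcnq1ot1, Anln, Kif2a, Nin, Kcne1, Hsd3b2, Nhlh1, Capn12 and Bbs7, with differences from -2.58 to -1.50. The stricter call held for 12 of the 12 with like replicates averaged, against 8 of the 12 largest rises. Zdhhc3, a palmitoyltransferase, read 1.74, 1.38, 1.75, 1.24 and 1.64 without a binge and 0.19, -0.07, -0.29 and -0.44 after multiple binges, and fell by 1.70 ± 0.20 (adjusted p = 1.32e-05). The single-binge arrays read 1.09 to 2.10 and the pair-fed arrays 0.66 to 1.47. Every multiple-binge array, and so every array of the separate scan, lay below all other 8-week arrays.

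The same order was seen in the medians of all falls. The 1083 genes that fell had median ratios of 0.30 in pair-fed, 0.38 in no-binge and 0.38 in single-binge arrays, all of one scan. In the groups fed for 10 days, which form another scan, the medians were 0.07 (pair fed) and 0.03 (ethanol and 1 binge). In multiple-binge arrays the median was -0.21. The means of the 3 groups of the first scan spanned a median of 0.16 for these genes, against 0.17 over all genes. The 321 genes that rose had medians of -0.25, -0.32, 0.02, -0.21, -0.06 and 0.13 in the same order of groups, and for the 12 largest rises the 3 groups of the first scan spanned a median of 2.40. Both sets were chosen by the difference between the multiple-binge and the no-binge group, so the order of those groups was fixed by the call. The no-binge group is also among the 3 groups spanned, so the choice of genes shapes the spans. Scan and multiple binges were not separable for either set.

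Exceptions among the falls were Cfd and Hsd3b2. Cfd, complement factor D or adipsin, which is made in fat, read 1.68, -0.81, 0.64, 1.99 and -0.38 without a binge and -1.89, -2.10, -2.29 and -1.54 after multiple binges. The no-binge arrays were widely spread, all multiple-binge arrays were lower, and the fall was 2.58 ± 0.41, or 5.96-fold (adjusted p = 0.000167), with -0.15 in Cy3. The single-binge arrays read -1.26 to -0.47, above all multiple-binge arrays and overlapping the low end of the no-binge arrays. Hsd3b2, a 3-beta-hydroxysteroid dehydrogenase with close paralogs that its probes may also read, gave 0.52 to 0.99 without a binge, -1.27, -1.28 and 0.34 on multiple-binge replicates 1, 3 and 4, and -1.91 to -1.01 after 1 binge. It fell by 1.57 ± 0.28 (adjusted p = 0.000378), with replicate 4 near the no-binge range.

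Probes of one gene did not always give one value. Of the 12 largest falls 8 had several probes, and in 3 a further probe gave a difference of the opposite sign. For Kif2a, a microtubule depolymerising kinesin, the brightest probe gave -1.61 (adjusted p = 2.53e-05) and the highest probe 0.35, and the mean over its probes gave -0.22 (adjusted p = 0.335). Taking the mean over probes also moved Kcnq1ot1 to -0.58, Anln to -0.54, Kcne1 to -0.52, Hsd3b2 to -0.97, Capn12 to -0.87, Bbs7 to -0.64 and Ltf to -0.42, each still past the threshold (adjusted p 5.01e-05 to 0.0448). For Kcne1, a potassium channel subunit, the probes ran from -1.59 to 0.55 and for Bbs7, a subunit of the BBSome of cilia, from -1.50 to 0.21. Kcnq1ot1, an imprinted long noncoding RNA, had 5 probes, from -1.64 to -0.05. Among the other genes named here, probes also differed in sign for Ltf, Csf1r, Itgam, Bmp6, Mgst1 and Cdkn1b.

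**Figure D5:**
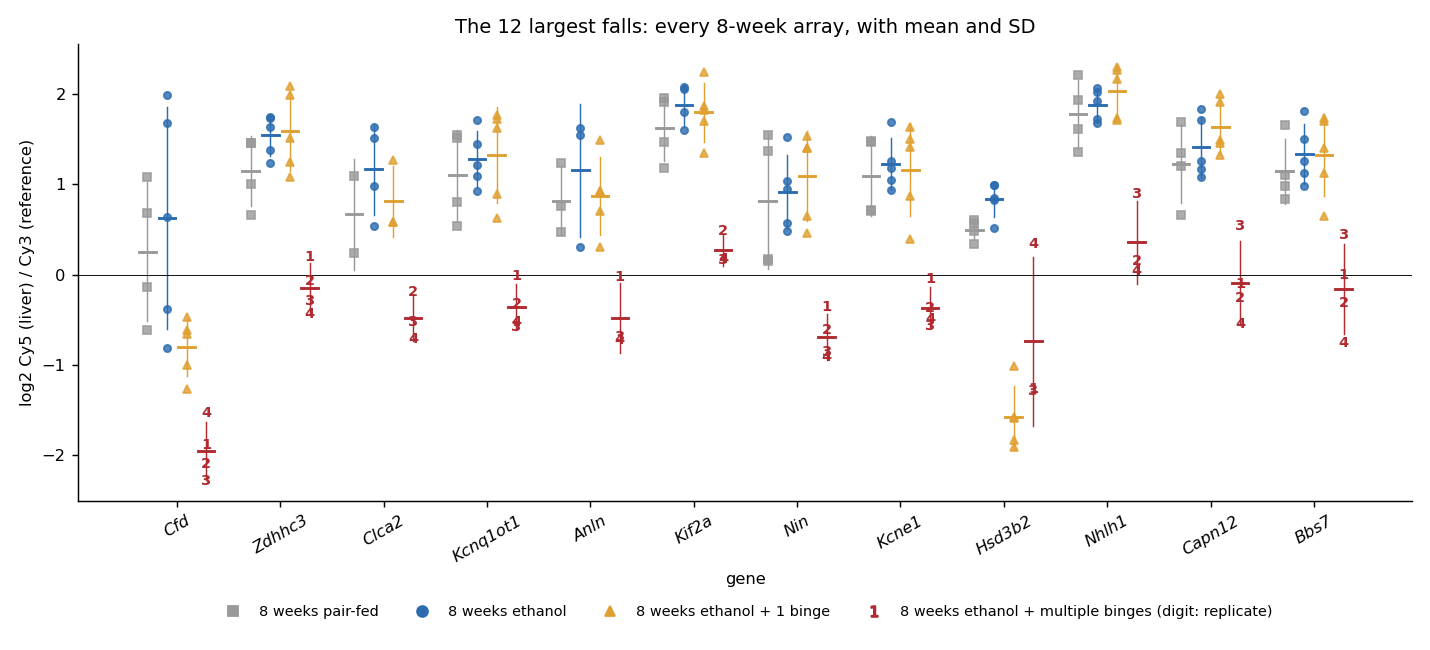
The log2 Cy5/Cy3 ratio (y axis) of the 12 largest falls (x axis) on every 8-week array, with bars for the group mean and SD and digits for the replicate number of the multiple-binge arrays. The pair-fed, no-binge and single-binge arrays lie at like levels for Zdhhc3, Kif2a and Kcnq1ot1, with the digits lower, while for Cfd and Hsd3b2 the single-binge arrays are also low.

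Markers of blood cells were spread over both directions, and most did not pass. Cd79a, part of the B cell receptor, read 1.16, 0.81, 0.85, 0.55 and 0.41 without a binge and -0.30, -0.54, -0.72 and -0.77 after multiple binges, and fell by 1.34 ± 0.21 (adjusted p = 0.000115). Its single-binge mean was 0.83, so the single-binge arrays did not share the fall. Of 11 neutrophil markers 2 were higher and 4 lower in the ratio. The granule genes Ltf, by 1.07 (adjusted p = 0.00131), and Ngp, by 0.37 (adjusted p = 0.0105), fell, and Camp and Retnlg were 0.79 and 0.99 lower in the ratio only. Lcn2, also on this list, was higher, as given above.

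Of 15 macrophage markers none was higher and 2 were lower in the ratio. Csf1r, the receptor for macrophage growth factor, fell by 0.42 (adjusted p = 0.00428), a call lost with scaling between arrays (adjusted p = 0.343), and Itgam (CD11b) was 0.95 lower (adjusted p = 0.000437) with a Cy3 difference of 0.46. Of 12 lymphocyte markers 2 were higher and 2 lower. Nkg7, a granule protein of cytotoxic cells, was 1.00 higher in the ratio (adjusted p = 5.76e-05), yet 1.08 lower in Cy5 and 2.08 lower in Cy3. Among 27 proliferation genes 3 were higher and 6 lower in the ratio. Over all genes 9.82% were higher and 15.7% lower, so neither the lymphocyte nor the proliferation counts set their list apart. Tyms, thymidylate synthase, Foxm1 and Cdc20, which act in DNA synthesis and mitosis, fell by 0.47, 0.58 and 0.48. Without multiple-binge replicate 4 the Cdc20 fall did not pass (adjusted p = 0.0815). Of 9 hepatocyte markers 1 was higher and 1 lower in the ratio, Asgr1, the asialoglycoprotein receptor, at -0.48 (adjusted p = 0.000141), with Cy5 and Cy3 higher by 1.22 and 1.70. With like replicates averaged the stricter call of Csf1r and Foxm1 ended through Cy5 or Cy3, while the ratio still passed, and that of Ngp ended in the ratio (adjusted p = 0.0652). The part of these markers in the other results was not tested.

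The single-binge group gives a second set of values, read in the same scan as the no-binge group and tested against the multiple-binge group across the scans. In that contrast 5179 of 17222 genes passed (30.1%). Of the 12 largest rises 7 had a lower mean after multiple binges than after 1 binge, and for 5 the difference passed. Cdkn1a had a mean of 1.20 after 1 binge and of -1.04 after multiple binges, a difference of -2.23 ± 0.54 (adjusted p = 0.00359). Mt2 had means of 1.46 and -0.15 (difference -1.62, adjusted p = 0.0193), and Mt1 of 1.96 and 0.17 (difference -1.79, adjusted p = 0.00836). On replicates 1 and 3 both metallothioneins were within the single-binge range, and on replicates 2 and 4 they were below it.

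Lyve1 had means of 0.83 and -0.05 (adjusted p = 0.00648), Ddit4 of 0.78 and -0.24 (adjusted p = 0.0105) and Mrap of 1.03 and -0.32 (adjusted p = 0.0126). With like replicates averaged the Ddit4 and Mrap differences were lost (adjusted p = 0.0598 and 0.0859). Fkbp5 was also lower than after 1 binge, by 0.89 (adjusted p = 0.00122). Lower after multiple binges than after 1 was Thrsp too, at -2.48 against -0.42 (adjusted p = 0.000637). Higher after multiple binges than after 1 were Srxn1 (0.11 against -0.94, adjusted p = 0.000191), Mt3 (0.06 against -0.37, adjusted p = 0.00245) and Hsd3b2 (-0.74 against -1.58, adjusted p = 0.0242). The acute-phase genes Apcs, Orm1, Orm2 and Orm3 did not pass in this contrast, with differences from 0.11 to 0.52 and adjusted p from 0.38 to 0.851.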

How the data were processed

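Livers of 24 samples were measured on 2-colour Agilent arrays. Per the file headers, Agilent Feature Extraction 11.5.1.1 gave median spot and median background intensity, processed signals and log10 ratios of Cy5 over Cy3, and the authors deposited a table of log2 ratio values, whose making is not given in the sources used here beyond the scanner software. Here the intensity was corrected with normexp (offset 50), ratios were normalised by loess within arrays, and Cy5 and Cy3 alone by Aquantile between arrays. Marked and control spots were left out. Of 41174 probes, matched to RefSeq genes by their accessions, 28006 had 1 gene symbol, 104 several and 13064 none. Of 36620 probes above background on 3 or more arrays, 26168 were named, giving 17910 genes (the brightest probe of each, 6266 with several) and 17234 tested. One fit of 6 group means over all 24 arrays used limma 3.58.1 in R 4.3.3 with statmod 1.5.0. In simulated data of 17044 genes it called 97 of 100 genes changed by 1 on the log2 scale and 100 of 100 changed by 2. There was 1 false call among the genes left unchanged. The simulated arrays varied independently, with no scan effect and no like replicates, so these rates do not carry over to the real arrays. Named were Cidec, the 12 largest rises and falls of the stricter call whose groups did not overlap, and per list up to 4 members by the stricter call, 2 by the ratio only and 2 that did not pass, of which a selection is printed. The members, lists and text genes were chosen with earlier results of these data known. Btg3 and Mrap come from the rises. Replicate numbers were not used to pair samples in the main fit. Alternatives were other backgrounds, scalings, filters, probe rules, blocks, array weights, arrays in the fit and left-out replicates.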

Additional observations from a re-analysis of the deposited data

Results flagged for a closer look

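Over 161 groups of 4 or 5 arrays, the lowest or highest array of a named gene lay farther from the others than Dixon's criterion allows in 7, and chance gives about 1 in 20. On no-binge replicate 5, Btg3 read -1.50 (nearest array -2.18), Lyve1 -1.96 (nearest -1.56), Cd14 -1.46 (nearest -2.19) and Cdc20 -0.33 (nearest 0.24). On no-binge replicate 1, Plin4 read -0.39 (nearest -1.25) and Aldh3b1 -0.30 (nearest -0.10). On multiple-binge replicate 3, Heph read -0.0214 (nearest -0.56).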

How the results depend on the processing

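The count of genes in the ratio was 2166 and by the stricter call 757 with like multiple-binge replicates averaged, an alternative chosen after seeing the data. Leaving out 1 replicate gave 3269 to 4316 genes in the ratio, 7124 to 8256 in Cy5, 7176 to 7868 in Cy3 and 940 to 1418 by the stricter call. The last was lowest without multiple-binge replicate 3, that in Cy3 without replicate 2. The Cidec difference did not pass under the following settings (adjusted p 0.0529 to 0.147). It was 1.80 with the replicate block, the scanner log ratio and the deposited values. The difference was 1.74 with the slide as a random block (correlation 0.122) or replicates averaged, 1.59 with median centring and 1.58 with scaling between arrays. With 1 replicate left out it was 1.41 to 2.09, and it passed without no-binge replicate 1 or multiple-binge replicate 2 or 4 (adjusted p 0.0286 to 0.0377). The cause was not tested. With each group's mean removed, same-numbered samples correlated at 0.19, -0.004, -0.17 and 0.17, and differently numbered ones at -0.21 to 0.12. With mixed signs, these values do not settle whether the numbers pair samples. The replicate block gave 4858 genes in the ratio and 1593 by the stricter call. Median centring moved the median of all genes to -0.11 and turned the Cyp26b1 difference from the single-binge group to -0.10, from 0.34. Of 91 named genes that passed in the ratio, 47 did so under every alternative run, with none reversed. Among them were 5 of the 12 largest rises and 10 of the 12 largest falls. A fit of the 8-week groups alone, also added after seeing the data, gave 4222 genes in the ratio and 1371 by the stricter call. The separate scan and the number of arrays limit every difference, and 79.8% to 83.5% of the probes were above background in Cy5 on the multiple-binge arrays.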
